A study of Mus musculus with 10 samples.

Results

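The genes examined build the core of the microvillus and the links between neighbouring microvilli: Vil1, Ezr, Espn, Pls1, Eps8, Cdhr2, Cdhr5, Ush1c, Myo1a and Myo7b. They were taken by gene name and are 10 of the 35275 genes in the deposited table. All 10 passed the filter on low values and are among the 15729 genes tested. RNA was sequenced from mechanically isolated jejunal epithelial cells of 10 adult C57BL/6 mice labelled male, with 1 library for each mouse. Every mouse carried the VillinCreERT2 transgene, in which the villin promoter drives a tamoxifen-inducible Cre recombinase, and MYO5Bflox/flox alleles. The 3 control mice (2, 4 and 5) received corn oil and were not induced. The 4 MYO5B-knockout mice (3, 5, 6 and 7) received 2 mg of tamoxifen and vehicle. The 3 LPA-treated MYO5B-knockout mice (1, 4 and 5) received 2 mg of tamoxifen and lysophosphatidic acid (LPA), injected intraperitoneally at 3 mg/kg. Cells of all groups were collected on day 4. Only the knockout groups were given tamoxifen, so tamoxifen and MYO5B loss cannot be told apart here. Levels are in FPKM, the reads on a gene per kilobase of its length, scaled to the reads on all genes of that library.

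Each microvillus of the brush border stands on a bundle of parallel actin filaments. Villin, espin and plastin 1 (also called fimbrin) cross-link the filaments, EPS8 sits at their tips, and ezrin and the motor myosin 1a tie the bundle to the membrane around it. Neighbouring microvilli are joined near their tips by the protocadherins CDHR2 and CDHR5, whose tails are held inside the cell by the scaffold USH1C (harmonin), the motor myosin 7b, ANKS4B and CALML4. MYO5B is a motor that carries vesicles toward the apical membrane, and its loss in people causes microvillus inclusion disease, in which microvilli are short and sparse.

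Myo5b, the targeted gene, stood at 16.5, 32.0 and 26.1 FPKM in control mice and between 10.3 and 13.6 FPKM in the mice given tamoxifen, without overlap, and did not pass adjustment (limma's adjusted p = 0.115 for knockout and 0.0939 for LPA-treated mice). Libraries of 2 mice stood apart: 12242 and 12601 genes were detected in control mouse 2 and knockout mouse 3, against 17309 to 18267 in the other 8, and mitochondrial genes took 17.4% and 18.0% of reads, against 1.98% to 3.50%. Knockout mouse 3 and LPA-treated mouse 1 also held Xist at 8.41 and 15.1 FPKM and no reads of Y-linked genes, against their label of male. Estimates of the 10 genes between knockout and control mice are therefore given with and without control mouse 2 and knockout mouse 3. Other results are given without such libraries only in part. The summed level of 10 enterocyte markers ran from 31769 to 41598 FPKM in control, 14852 to 27100 FPKM in knockout and 23515 to 44455 FPKM in LPA-treated mice, so that every knockout library lay below every control. Of these 10 markers 7 had a log2 fold change below 0 between knockout and control mice and 1 passed, with a median of -0.93. The sum of 8 general epithelial markers ran from 6136 to 6305, 6895 to 10428 and 9988 to 11649 FPKM, without overlap with the controls. The markers differed in direction, and none passed between knockout and control mice. Their log2 fold changes were 1.77 for Krt18, 0.96 for Krt19, 0.67 for Cdh1, 0.51 for Krt8 and 0.13 for Cldn3. Elf3 had -0.07, Cldn7 -0.09 and Epcam -0.14. The summed level of 13 leukocyte markers ran from 311 to 438 FPKM in control, 14.1 to 130 FPKM in knockout and 43.0 to 72.4 FPKM in LPA-treated mice, and that of 14 proliferation genes from 104 to 155, 262 to 430 and 181 to 335 FPKM. None of these markers was at 0 in a whole group, and the sum of 12 stromal, muscle and endothelial markers did not exceed 11.0 FPKM. In bulk samples of this kind, fewer enterocytes and less RNA per enterocyte cannot be told apart. The part of enterocyte share, of leukocytes and of proliferating cells in the results was not tested.

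In control mice the genes ranked from Vil1, at a median of 856 FPKM, through Cdhr5 at 774, Myo1a at 599, Ezr at 435, Cdhr2 at 398, Pls1 at 253, Ush1c at 120, Espn at 105 and Myo7b at 89.7, down to Eps8 at 49.6 FPKM. Because FPKM are per length, these levels can be set against each other. Neighbours in this order overlapped in range, with the exception of Myo1a and Ezr. In knockout mice Vil1 was again first, at a median of 492 FPKM, while Espn was last at 35.6 FPKM and Eps8 stood in the seventh place at 71.6 FPKM. In LPA-treated mice Cdhr5 was first at 486 FPKM and Myo7b last at 32.8 FPKM. The levels of the 10 genes summed to 3167 to 3706 FPKM in control libraries, 1375 to 2695 FPKM in knockout libraries and 1416 to 2258 FPKM in LPA-treated libraries, so that every control sum exceeded every knockout sum.

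**Figure D1:**
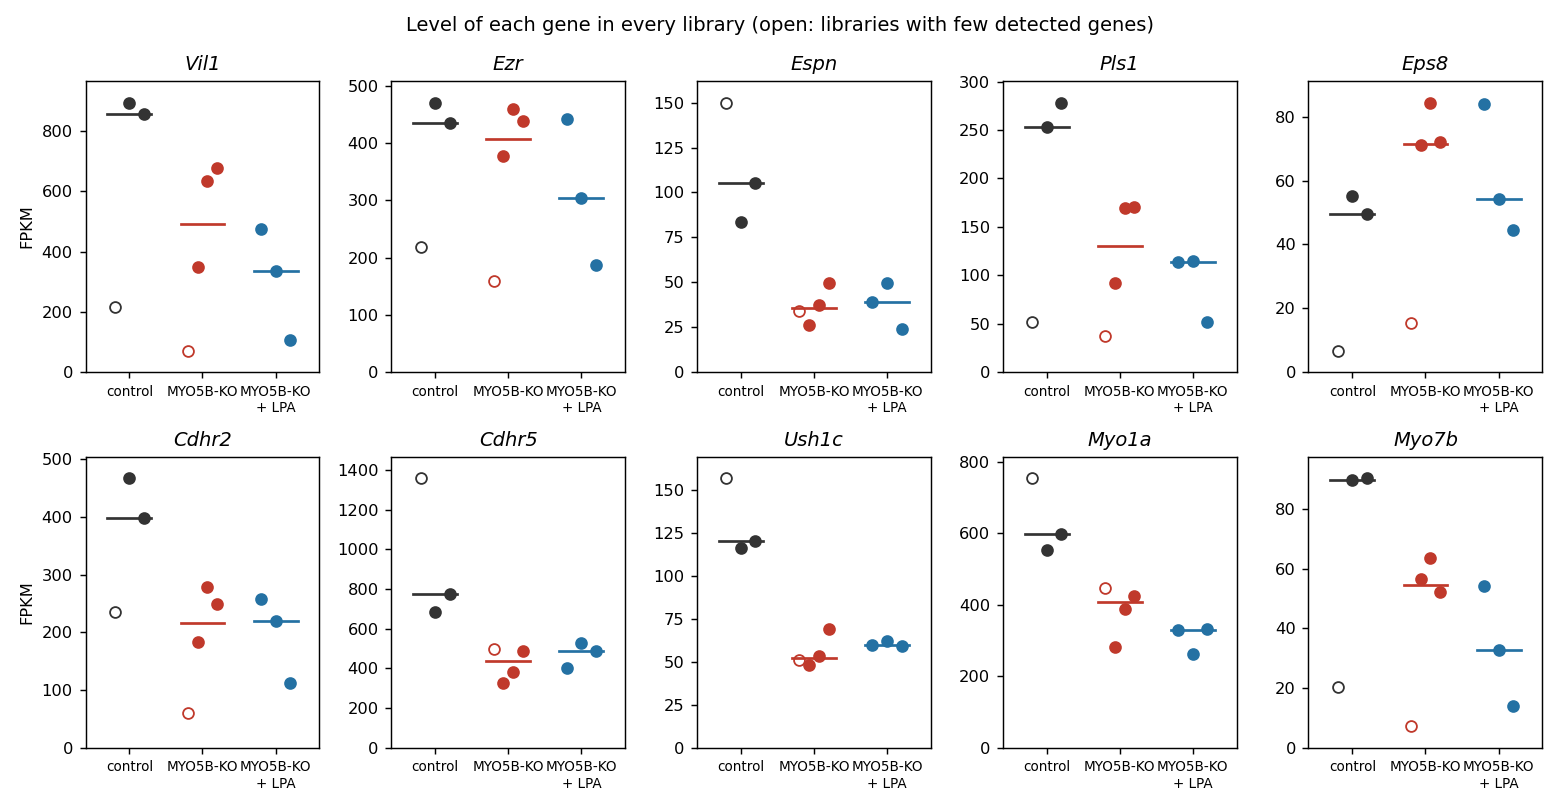
Level of each of the 10 genes in FPKM (vertical axis, from 0) in every library of control, MYO5B-knockout (MYO5B-KO) and LPA-treated MYO5B-knockout mice. Points are libraries, open points are control mouse 2 and knockout mouse 3, in which few genes were detected, and bars are medians. For Espn, Cdhr5, Ush1c and Myo1a all 3 control points lie above all 7 others, and for the remaining 6 genes each open point is the lowest of its group.

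Knockout and control mice were compared to see how the genes of the microvillus stood on day 4. Espn and Ush1c fell. They were the 2 of the 10 genes with an adjusted p under 0.05 (limma on log2 of FPKM + 0.1, two-sided, adjusted over the 15729 genes), and over all genes 0.884% passed as lower. At an unadjusted p under 0.05, 4 of the 10 were lower, against 6.35% of all genes. In total 9 of the 10 had a log2 fold change below 0, against 36.6% of all genes, and Eps8 was the exception. The median over the 10 genes was -0.75, and 0.29 over all genes. Dividing each library by its median-ratio size factor brought the median of all genes to 0.039 and that of the 10 to -1.05. The same scaling changed the calls over all genes from 139 lower and 177 higher to 375 lower and 223 higher. Knockout and control libraries did not overlap for 4 of the 10 genes, all lower in knockout mice (Espn, Ush1c, Cdhr5 and Myo1a), against 6.2% of all genes.

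Espn (ENSMUSG00000028943, chromosome 4 from 152120331 to 152152371, minus strand) encodes an actin bundler that lengthens microvilli. Its levels were 150 FPKM in control mouse 2, 83.5 FPKM in mouse 4 and 105 FPKM in mouse 5. Knockout mice 3, 5, 6 and 7 had 33.9, 26.3, 37.4 and 49.4 FPKM. The lowest control thus lay above the highest knockout library. The means were 113 ± 34.0 (SD, n = 3) and 36.7 ± 9.61 FPKM (SD, n = 4), so that knockout mice held 32.6% of the control level. limma put the log2 fold change at -1.61 (SE 0.34) with an adjusted p of 0.0432. Without control mouse 2 and knockout mouse 3 the estimate was -1.36 and the call was lost (limma's adjusted p = 0.0733). It was also lost when any single mouse was left out (limma's adjusted p from 0.0508 to 0.144).

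Vil1 (ENSMUSG00000026175, chromosome 1 from 74409376 to 74435559, plus strand) encodes villin, which bundles actin and severs it when calcium rises, and its promoter drives Cre in all of these mice. The controls had 217, 895 and 856 FPKM, in order of mouse number, and the knockouts 69.3, 349, 635 and 679 FPKM. Control mouse 2 lay below 3 of the 4 knockout libraries, whereas the other controls lay above all of them. The log2 fold change of -0.78 had a 95% interval from -2.67 to 1.11 (limma's adjusted p = 0.673). It was -1.45 without control mouse 2, -0.047 without knockout mouse 3 and -0.72 without both. Pls1 (ENSMUSG00000049493, chromosome 9 from 95752642 to 95845311, minus strand), which encodes plastin 1, had 51.4, 253 and 278 FPKM in the controls and 37.4, 91.5, 170 and 171 FPKM in the knockouts. As for Vil1, the lowest library of each of these groups was the one in which few genes were detected. The estimate for Pls1 was -0.62 (limma's adjusted p = 0.679), and -1.41, -0.15 and -0.94 with the same libraries left out.

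Eps8 (ENSMUSG00000015766, chromosome 6 from 137477245 to 137654876, minus strand) encodes a protein that caps and bundles actin at the microvillar tip. The controls had 6.60, 55.3 and 49.6 FPKM and the knockouts 15.2, 71.0, 84.4 and 72.2 FPKM. Knockout mice 5, 6 and 7 lay above every control. The log2 fold change was 0.94 over all libraries (limma's adjusted p = 0.572) and, with control mouse 2 and knockout mouse 3 left out, 0.53 (limma's adjusted p = 0.255), while leaving out control mouse 2 alone gave -0.05. Eps8 was the least like the other members: its Pearson correlation with the mean of the 10 over the 10 libraries, which they share, was 0.247, and those of the others ran from 0.405 for Cdhr5 to 0.965 for Cdhr2.

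Myo1a (ENSMUSG00000025401, chromosome 10 from 127705170 to 127720887, plus strand) encodes the motor that bridges bundle and membrane along the side of the microvillus. The controls had 754, 553 and 599 FPKM and the knockouts 447, 282, 389 and 425 FPKM. Every control exceeded every knockout library, and the knockout mean was 60.8% of the control mean. The log2 fold change of -0.73, with a 95% interval from -1.33 to -0.13, did not pass adjustment (limma's adjusted p = 0.196). Without control mouse 2 and knockout mouse 3 it was -0.68. Ezr (ENSMUSG00000052397, chromosome 17 from 6738041 to 6782784, minus strand) encodes ezrin, which links membrane proteins to actin. The controls had 219, 471 and 435 FPKM and the knockouts 159, 377, 459 and 439 FPKM, and the groups overlapped with and without the libraries in which few genes were detected. Its estimate was -0.10 with a 95% interval from -1.13 to 0.93 (limma's adjusted p = 0.937).

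Ush1c (ENSMUSG00000030838, chromosome 7 from 46195350 to 46238503, minus strand) encodes harmonin, the scaffold that joins the protocadherin tails to their motor. Its levels were 157 FPKM in control mouse 2, 116 FPKM in mouse 4 and 120 FPKM in mouse 5. Knockout mice 3, 5, 6 and 7 had 51.1, 48.3, 53.3 and 69.0 FPKM. The groups lay apart. Control mouse 2 was the highest control, and knockout mouse 3 was not the lowest of its group. The means were 131 ± 22.3 (SD, n = 3) and 55.4 ± 9.27 FPKM (SD, n = 4), or 42.3% of the control level in knockout mice. limma put the log2 fold change at -1.24 (SE 0.23) with an adjusted p of 0.0286. Without control mouse 2 and knockout mouse 3 the estimate was -1.07 and the call held (limma's adjusted p = 0.0269). When single mice were left out it held in 3 of 10 fits (limma's adjusted p from 0.0341 to 0.115) and was lost without control mouse 4 or 5, without knockout mouse 5 or 6, and without any of the LPA-treated mice, which share the estimate of spread.

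Cdhr5 (ENSMUSG00000025497, chromosome 7 from 141269085 to 141276786, minus strand) and Cdhr2 (ENSMUSG00000034918, chromosome 13 from 54701461 to 54736662, plus strand) encode the protocadherins that bind each other between tips. For Cdhr5 the controls had 1357, 682 and 774 FPKM and the knockouts 495, 326, 381 and 489.7 FPKM, without overlap. Its log2 fold change of -1.10, with a 95% interval from -1.81 to -0.40, did not pass (limma's adjusted p = 0.105), but DESeq2 on the recovered reads called it (adjusted p = 0.0328). For Cdhr2 the controls had 235, 467 and 398 FPKM and the knockouts 60.2, 184, 279 and 249 FPKM. Control mouse 2 lay inside the knockout range and the other controls above it. The estimate for Cdhr2 was -1.08 (limma's adjusted p = 0.327), and DESeq2 called it as well (adjusted p = 0.0256). No other alternative fit called either gene, and DESeq2 called far more genes in all than limma did. With control mouse 2 and knockout mouse 3 left out, the log2 fold changes were -0.885 for Cdhr5 and -0.883 for Cdhr2.

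Myo7b (ENSMUSG00000024388, chromosome 18 from 31959234 to 32036961, minus strand), the motor of the complex, had 20.2, 89.7 and 90.4 FPKM in the controls and 7.21, 56.7, 63.8 and 52.2 FPKM in the knockouts. The controls other than mouse 2 exceeded every knockout library. The estimate was -0.68 (limma's adjusted p = 0.716), 0.07 when knockout mouse 3 alone was left out and -0.65 without control mouse 2 as well. Anks4b, which encodes the adaptor between USH1C and myosin 7b, had 90.6, 101 and 105 FPKM in the controls and 62.0, 44.7, 63.8 and 70.3 FPKM in the knockouts. Calml4, which encodes a light chain of myosin 7b, had 186, 344 and 416 FPKM in the controls and 138, 106, 120 and 168 FPKM in the knockouts. Neither of these partners overlapped between the groups, with log2 fold changes of -0.73 and -1.19, and neither passed (limma's adjusted p = 0.164 and 0.167).

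**Figure D2:**
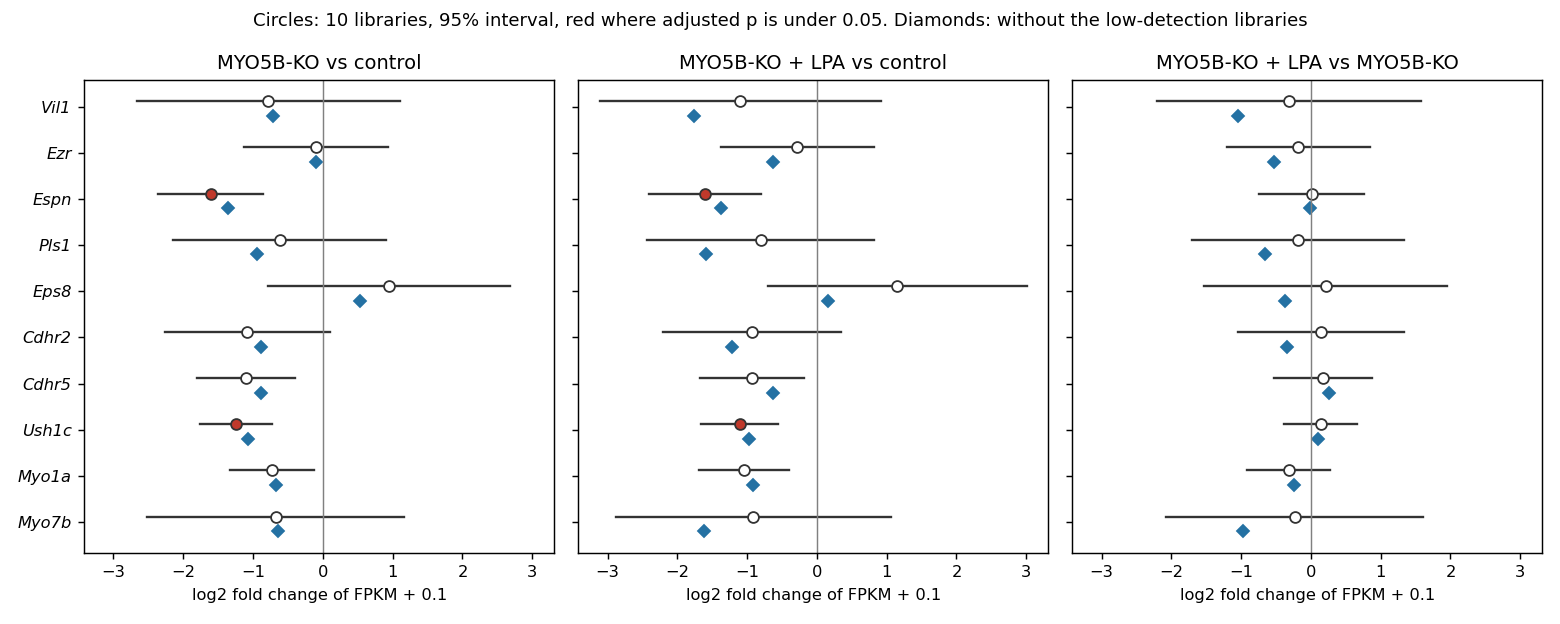
Log2 fold change of FPKM + 0.1 (horizontal axis) for each of the 10 genes in the 3 comparisons. Circles with 95% intervals are limma's estimates over 10 libraries, red where the adjusted p was under 0.05, and diamonds are estimates without control mouse 2 and knockout mouse 3. Espn and Ush1c are red in both comparisons with control mice, and the 10 intervals of LPA-treated against knockout mice all include 0.

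The libraries in which few genes were detected split the 10 genes. In control mouse 2 the log2 difference from the mean of control mice 4 and 5 was -2.97 for Eps8, -2.37 for Pls1, -2.15 for Myo7b, -2.02 for Vil1, -1.05 for Ezr and -0.873 for Cdhr2. It was 0.902 for Cdhr5, 0.680 for Espn, 0.406 for Ush1c and 0.390 for Myo1a. These last 4 are also the genes whose knockout and control libraries did not overlap, and control mouse 2 was the highest control for each. Knockout mouse 3 differed from knockout mice 5, 6 and 7 in a like order, from -2.97 for Myo7b to -1.42 for Ezr among the first 6 genes and from -0.137 for Ush1c to 0.332 for Cdhr5 among the last 4. LPA-treated mouse 5, with 17748 genes detected, showed -1.89 for Vil1 and -1.59 for Myo7b against LPA-treated mice 1 and 4, but 0.0728 for Cdhr5, 0.176 for Myo1a and -0.0414 for Ush1c. Espn departed from its set there, at -0.858. Over all genes tested the median differences of these 3 libraries were -0.883, -0.949 and -0.107.

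Ratios between members followed the split. The ratio of Cdhr5 to Cdhr2 was 5.77 in control mouse 2, 8.22 in knockout mouse 3 and 4.37 in LPA-treated mouse 5, and between 1.37 and 2.40 in the other 7 libraries. The ratio of Myo1a to Vil1 was 3.48, 6.45 and 3.08 in the same libraries and between 0.613 and 0.808 elsewhere. Vil1 and Myo7b kept a ratio between 6.16 and 13.0 in all 10 libraries, and their correlation over these libraries, 0.973, was the highest among the pairs of members. The GC content of the transcripts was lowest for Pls1 at 42.7% and Eps8 at 47.6%, and highest for Cdhr5 at 56.2%, Ush1c at 56.6% and Espn at 63.9%. Over the 10 genes it correlated with the difference of control mouse 2 at 0.711, of knockout mouse 3 at 0.443 and of LPA-treated mouse 5 at 0.142, and over 4770 genes that averaged 10 FPKM or more at 0.215, 0.0668 and -0.0183. The GC content of the remaining genes was 52.8% for Ezr, 53.2% for Vil1, 53.3% for Myo1a, 54.2% for Cdhr2 and 55.5% for Myo7b. The part of GC content, of RNA quality or of the mice themselves was not tested.

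**Figure D3:**
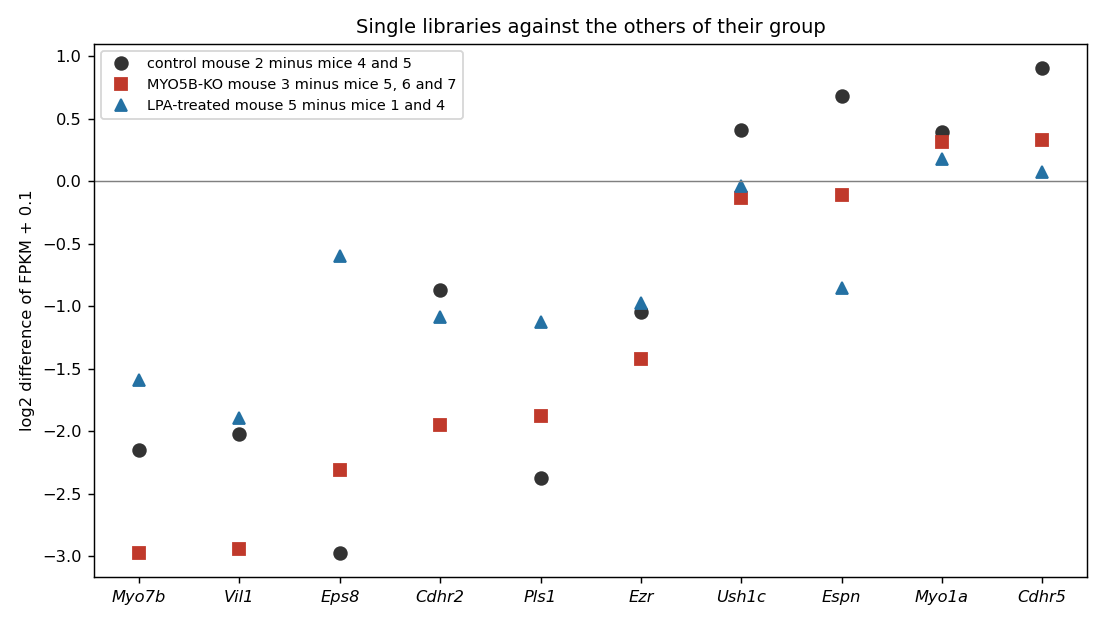
Log2 difference of FPKM + 0.1 (vertical axis) of control mouse 2, knockout mouse 3 and LPA-treated mouse 5 from the mean of the other mice of their group, for each of the 10 genes, ordered by the knockout values. Vil1, Myo7b, Eps8, Pls1, Ezr and Cdhr2 lie below 0 in all 3 libraries, and Myo1a and Cdhr5 lie above 0 in all 3.

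The libraries with few detected genes were then compared with each other, and so were the others. Knockout mouse 3 and control mouse 2 were not alike in all else. Xist stood at 8.41 FPKM in knockout mouse 3 and at 0 in control mouse 2, and reads of Y-linked genes at 0 and 836. Between knockout mouse 3 and control mouse 2, a pair that allows no test, 9 of the 10 genes were lower in the knockout, with a median log2 difference of -1.47 and of 0 over all genes. The difference was -2.14 for Espn, -1.96 for Cdhr2, -1.64 for Vil1 and -1.61 for Ush1c, and 1.19 for Eps8. Between the other knockout and control mice the same 9 genes were lower, with a median of -0.80 and of 0.21 over all genes. Without those 2 libraries, knockout mice lay below control mice without overlap for 8 genes (all but Ezr and Eps8), against 20.5% of all genes, and above them for Eps8, against 35.5%. Of these, Ush1c passed adjustment.

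The sequence before the RefSeq start is shown for Espn and Ush1c, which fell, for Cdhr5, which did not overlap between groups, and for Vil1, whose promoter drives Cre. Each run holds the 200 bases before the start, 5′ to 3′ on the gene's strand in GRCm38.p6, and capitals mark a match to a searched motif.
Espn (chr4:152152390-152152589, minus strand): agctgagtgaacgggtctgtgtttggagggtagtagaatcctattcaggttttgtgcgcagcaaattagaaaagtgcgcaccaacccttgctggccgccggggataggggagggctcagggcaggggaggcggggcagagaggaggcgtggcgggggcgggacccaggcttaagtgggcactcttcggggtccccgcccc
Ush1c (chr7:46238491-46238690, minus strand): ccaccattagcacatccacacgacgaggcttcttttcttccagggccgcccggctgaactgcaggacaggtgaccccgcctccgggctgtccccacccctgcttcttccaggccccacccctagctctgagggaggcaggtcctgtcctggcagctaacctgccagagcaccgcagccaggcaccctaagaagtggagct
Cdhr5 (chr7:141276787-141276986, minus strand): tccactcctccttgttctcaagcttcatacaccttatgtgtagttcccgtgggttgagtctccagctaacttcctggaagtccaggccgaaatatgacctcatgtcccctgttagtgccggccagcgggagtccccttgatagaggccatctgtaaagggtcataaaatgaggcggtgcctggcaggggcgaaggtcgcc
Vil1 (chr1:74409184-74409383, plus strand): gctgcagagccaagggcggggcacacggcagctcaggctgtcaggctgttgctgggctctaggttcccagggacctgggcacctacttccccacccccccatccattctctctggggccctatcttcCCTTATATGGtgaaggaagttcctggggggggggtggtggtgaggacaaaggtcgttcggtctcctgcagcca

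The motifs searched, on both strands, were an HNF4-type motif (AAAGTCCA), a CDX-type motif (CNATAAA), the TATA box (TATAAA) and the CArG box. A CDX-type match can overlap a TATA box where its second letter is T. RefSeq windows were matched for 8 of the 10 genes, and those of Eps8 and Myo7b were not used here. The capitals in Vil1 are a CArG box that begins 73 bases before the start. A window at an internal Espn start, from 152128926 to 152129125 on chromosome 4, held a CDX-type match 197 bases before that start. The other windows, including those of Ezr, Pls1, Cdhr2 and Myo1a, held none of these letters. Over 32851 promoters of the same length, 1.18% held a CArG box, 7.73% a CDX-type match, 9.96% a TATA box and 0.81% an HNF4-type match. FPKM are per gene, so which Espn start these cells used was not measured.

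LPA-treated mice were compared with the same controls. Espn had 39.0, 49.6 and 24.2 FPKM in LPA-treated mice 1, 4 and 5, all below the lowest control, and fell by 1.60 on the log2 scale (SE 0.36, limma's adjusted p = 0.0496). Ush1c had 59.6, 62.4 and 59.3 FPKM, 46.1% of the control mean, and fell by 1.10 on the log2 scale (SE 0.25, limma's adjusted p = 0.0498). These were the 2 of the 10 genes that passed, against 0.776% of all genes as lower, and in total 9 of the 10 had a log2 fold change below 0, against 30.0% of all genes. Both calls stood just under the threshold: after median-ratio scaling and in edgeR on recovered reads neither passed, and each held in 1 of the 10 fits that left out a single mouse. With control mouse 2 and knockout mouse 3 left out, Espn had an estimate of -1.37 and no longer passed (limma's adjusted p = 0.0580), while Ush1c had -0.97 and passed (limma's adjusted p = 0.0239). That scaling changed the calls over all genes from 122 lower and 243 higher to 268 lower and 221 higher.

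Cdhr5 had 404, 529 and 486 FPKM in LPA-treated mice 1, 4 and 5, all below the controls (log2 fold change -0.93, limma's adjusted p = 0.203). Myo1a had 329, 261 and 331 FPKM, also below every control (-1.04, limma's adjusted p = 0.0949). DESeq2 on the recovered reads called Myo1a (-1.51, adjusted p = 0.0165), and no other alternative fit did. With Espn and Ush1c, these made 4 of the 10 genes that were lower without overlap, against 6.38% of all genes. Without control mouse 2 and knockout mouse 3 there were 8, against 18.7% of all genes, and without LPA-treated mouse 1 as well there were 9, against 29.3%.

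For the other adhesion genes, Cdhr2 had 257, 220.1 and 111 FPKM (-0.93, limma's adjusted p = 0.446) and Myo7b 54.1, 32.8 and 13.9 FPKM (-0.91, limma's adjusted p = 0.636) in LPA-treated mice. Without control mouse 2, knockout mouse 3 and LPA-treated mouse 1, Myo7b had an estimate of -2.07 and passed (limma's adjusted p = 0.0266). For the actin genes, Vil1 had 475, 334 and 107 FPKM (-1.09, limma's adjusted p = 0.574) and Pls1 114, 114 and 51.9 FPKM (-0.81, limma's adjusted p = 0.612). LPA-treated mouse 5 was the lowest of its group for all 4 of these genes, and control mouse 2 lay below the highest LPA-treated library for each. Ezr had 443, 304 and 186 FPKM (-0.28, limma's adjusted p = 0.810) and Eps8 84.0, 54.2 and 44.5 FPKM (1.15, limma's adjusted p = 0.518), both overlapping the controls. The estimate for Eps8 was 0.17 without control mouse 2, alone or with knockout mouse 3, and -0.093 without LPA-treated mouse 1 as well.

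LPA-treated and vehicle-treated knockout mice were compared to see whether the microvillar genes differed with LPA once MYO5B was lost. None of the 10 genes passed, and limma called 0 of the 15729 genes (0%), of which 2.92% had an unadjusted p under 0.05, none of them a member. DESeq2 called 7 genes, none of them a member. The estimates lay between -0.32 for Myo1a and 0.21 for Eps8, with a median of -0.08 over the 10 genes and 0.11 over all genes. No member was free of overlap, against 0.604% of all genes as lower and 3.56% as higher. The 95% interval was from -0.38 to 0.66 for Ush1c, from -0.91 to 0.28 for Myo1a, from -0.53 to 0.88 for Cdhr5 and from -0.74 to 0.76 for Espn. It was from -2.20 to 1.57 for Vil1 and from -2.07 to 1.61 for Myo7b, so that even a large difference in either was not detectable with these mice.

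Without control mouse 2 and knockout mouse 3, 8 of the 10 genes were lower in LPA-treated mice, with a median of -0.35 and of -0.11 over all genes. Vil1 then had an estimate of -1.05 (limma's adjusted p = 0.473) and Myo7b of -0.98 (limma's adjusted p = 0.468). Without LPA-treated mouse 1 as well, Vil1, Ezr, Eps8 and Myo7b were lower without overlap, against 26.2% of all genes. Calml4 had 140.3, 393 and 159 FPKM and Anks4b 48.1, 57.8 and 39.3 FPKM in LPA-treated mice, with estimates of 0.65 and -0.31 that did not pass. For Calml4, LPA-treated mouse 4 alone lay above the knockout range.

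Other genes of the brush border were read from lists by role. Of 14 tested among the other actin core and tip genes, 2 rose in knockout mice and none fell, against 1.13% of all genes as higher. Capg, which encodes a protein that caps the growing end of actin filaments, had 23.5, 11.97 and 7.83 FPKM in the controls and 175, 186, 127 and 157 FPKM in the knockouts. Every knockout library lay far above every control, and the log2 fold change was 3.61 (limma's SE 0.37, adjusted p = 0.00154). Gsn, which encodes gelsolin, a severing protein of the villin family, had 14.7, 13.5 and 12.7 FPKM in the controls and 42.4, 90.3, 84.9 and 103 FPKM in the knockouts, a log2 fold change of 2.48 (limma's SE 0.38, adjusted p = 0.0120). Without control mouse 2 and knockout mouse 3, Capg had 3.99 (limma's adjusted p = 0.00211) and Gsn 2.81 (limma's adjusted p = 0.00995). Actb, beta-actin, was the most abundant of the list, at 3563 to 5455 FPKM in the controls and 2406 to 5261 FPKM in the knockouts (-0.27, limma's adjusted p = 0.775).

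In LPA-treated mice 3 of these 14 genes passed against the controls, all higher, with 1.54% of all genes as background. Capg had 215, 301 and 174 FPKM (log2 fold change 4.09, limma's adjusted p = 0.000937) and Gsn 116, 114 and 53.4 FPKM (2.70, limma's adjusted p = 0.00892). Vill, which encodes a villin-like protein, had 1.80, 1.89, 0.590 and 0.761 FPKM in the knockouts, above every control, without passing (2.09, limma's adjusted p = 0.103). LPA-treated mice had 2.57, 2.22 and 2.64 FPKM of Vill against 0.511, 0.0666 and 0.132 FPKM in the controls, which rest on 22, 4 and 9 reads (3.16, limma's adjusted p = 0.0340). After median-ratio scaling Capg and Gsn passed and Vill did not (limma's adjusted p = 0.0740), and with single mice left out Vill passed in 3 of 10 fits. The call of Gsn was lost without LPA-treated mouse 4 here, and between knockout and control mice without control mouse 4 or 5 or knockout mouse 5.

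Of 19 genes of the terminal web, the meshwork of myosin, spectrin and keratin under the microvilli, 1 rose in knockout mice and none fell. Over all genes 1.13% passed as higher. Actn1, which encodes the cross-linker alpha-actinin 1, had 5.13, 8.62 and 6.28 FPKM in the controls and 27.3, 46.4, 27.8 and 22.0 FPKM in the knockouts (log2 fold change 2.17, limma's adjusted p = 0.0120). Its estimate was 2.04 without control mouse 2 and knockout mouse 3 (limma's adjusted p = 0.0269). In LPA-treated mice 3 of the 19 passed as higher, against 1.54% of all genes. Actn1 had 51.3, 33.0 and 47.8 FPKM (2.71, limma's adjusted p = 0.00463). Krt18, a keratin of simple epithelia, ran from 368 to 1445 FPKM in the knockouts, above every control, without passing (1.77, limma's adjusted p = 0.0721). In LPA-treated mice Krt18 had 786, 1054 and 1278 FPKM against 262, 171 and 142 FPKM in the controls (2.46, limma's adjusted p = 0.0316). Krt19, another such keratin, ran from 1229 to 2095 FPKM in the knockouts, also above every control, without passing (0.96, limma's adjusted p = 0.132). In LPA-treated mice Krt19 had 2217, 2596 and 2218 FPKM against 789, 917 and 902 FPKM in the controls (1.43, limma's adjusted p = 0.0483). After median-ratio scaling neither keratin passed (limma's adjusted p = 0.155 for Krt18 and 0.314 for Krt19), nor did either in edgeR or DESeq2, and with single mice left out Krt18 passed in 4 and Krt19 in 1 of 10 fits. Under that scaling Actn1 passed, and so did Myh10, a non-muscle myosin heavy chain named after its values were seen (2.45, limma's adjusted p = 0.0486). Actn1 passed in all 10 fits that left out a single mouse, and between knockout and control mice in all but that without control mouse 5. Between knockout and control mice 17 of the 19 lay above 0 with a median of 0.47, while only 36.6% of all genes lay below 0. After median-ratio scaling 11 of the 19 lay above 0, with a median of 0.18. Between LPA-treated and control mice 11 of the 19 lay above 0 after that scaling, with a median of 0.17. Krt8, the most abundant of the list, had an estimate of 0.51 (limma's adjusted p = 0.444).

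None of the 13 tested linkers, scaffolds and kinases passed in knockout mice, with 7 above 0, a median of 0.14 and a range from -3.93 to 1.52. Slc9a3r1, the most abundant of them, encodes the ezrin-binding scaffold EBP50 and had 600.02, 1109 and 1071 FPKM in the controls and 323, 441, 691 and 835 FPKM in the knockouts (-0.74, limma's adjusted p = 0.438). None of the 7 tested glycoproteins of the microvillar membrane passed, with a median of -0.36, and Muc13, the most abundant, had an estimate of -0.36 (limma's adjusted p = 0.666). After median-ratio scaling 1 linker (Slk) passed as higher and 1 glycoprotein (Tmigd1) as lower, both named after their values were seen. Of 9 genes that serve the same complexes in the stereocilia of hair cells, 3 were tested and none passed. Myo7a, the most abundant of them, ran from 0.986 to 7.59 FPKM in control and knockout mice (-0.84, limma's adjusted p = 0.516). In LPA-treated mice none of these 3 lists held a gene that passed against the controls, but Tmigd1 passed as lower after that scaling (-2.76, limma's adjusted p = 0.0239).

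**Figure D4:**
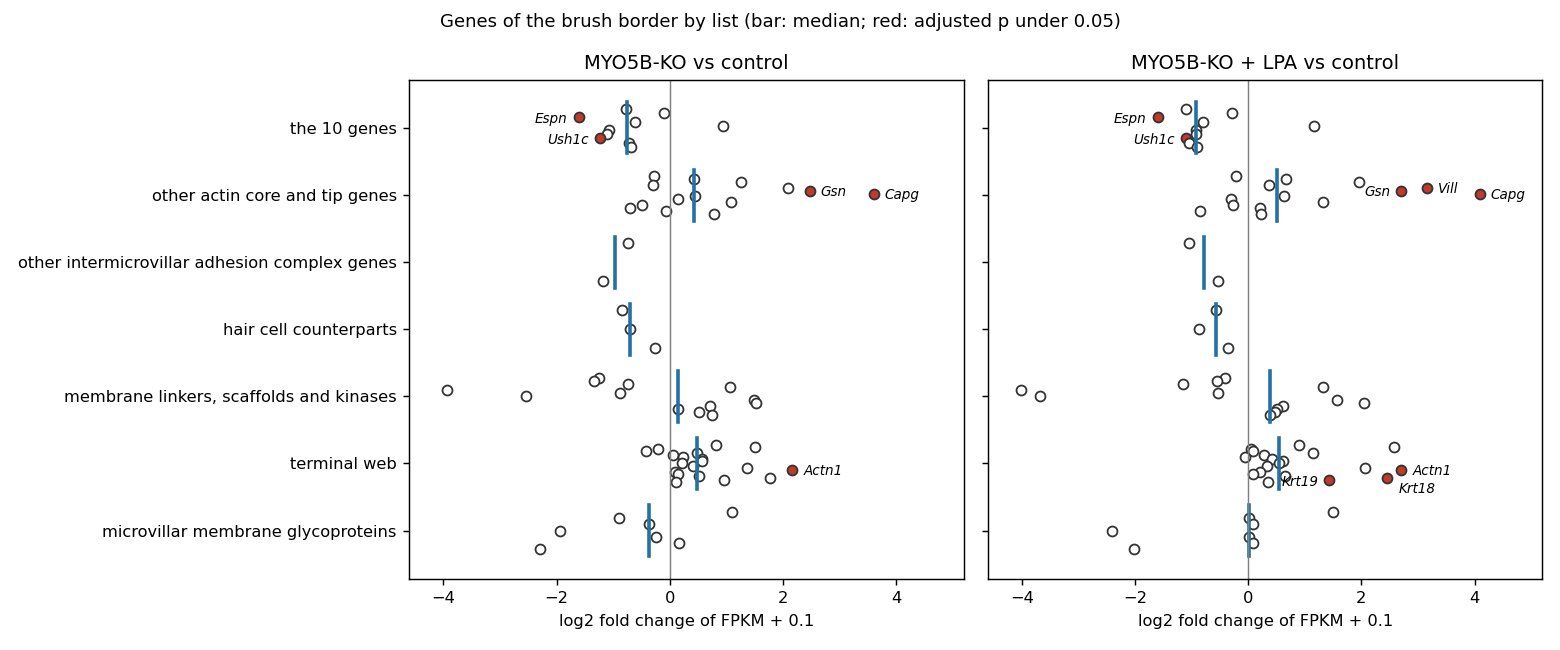
Log2 fold change of FPKM + 0.1 (horizontal axis) of the genes in each list, for knockout and LPA-treated knockout against control mice. Each point is a gene, red with its name where limma's adjusted p was under 0.05, and blue bars are list medians. Espn and Ush1c lie to the left of 0, and each of the other named genes lies to the right.

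Genes whose levels followed the mean of the 10 most closely were sought among 4771 others that averaged 10 FPKM or more. The highest Pearson correlations over the 10 libraries, which share their depth and composition, were those of Sec14l1 at 0.995, Xpnpep1 at 0.984, Cd82 at 0.981, H2-Q1 at 0.979 and Gnpda1 at 0.979. Without control mouse 2 and knockout mouse 3 they ran from 0.959 to 0.996. Sec14l1 had 12.9, 20.9 and 23.7 FPKM in control, 4.32, 8.76, 13.4 and 14.4 FPKM in knockout and 13.2, 9.84 and 5.69 FPKM in LPA-treated mice. Like Vil1, it was lowest in control mouse 2, knockout mouse 3 and LPA-treated mouse 5 of their groups, and it did not pass in any comparison. H2-Q1 has close relatives in the histocompatibility complex, so its reads may be divided among them.

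Genes on the opposite strand overlap 3 members, and the strand setting of the counting is not given in the sources used here. Over the 10 libraries Usp37 held 5.06% as many reads as Vil1, Sytl3 0.552% as many as Ezr, and Gm16344 and Gm16345 held 0.396% and 0.113% as many as Myo7b.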

How the data were processed

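RNA from 10 jejunal epithelial preparations was sequenced, and the authors deposited FPKM for 35275 genes with gene length and position. The labels' processing notes name STAR 2.5, TopHat, HTSeq 0.6.1, DESeq2, GRCm38 and mm10, without roles. The authors also deposited enrichment tables and a list of genes with fold changes, p-values and read counts from their own comparison. The enrichment tables, fold changes and p-values were not used. Deposited read counts in that list served only as a check, and equalled the reads recovered from FPKM and gene length in 63 of 63 cases, and 100% of FPKM values came out whole (within 0.05 reads). Reads on genes ranged from 10949420 to 24470409 per library, so that 1 read on a gene of 1 kb was worth 0.0409 to 0.0913 FPKM. LPA-treated mouse 1 was grouped by its title, since its description names both vehicle and LPA. Knockout mice here are MYO5B-knockout mice given vehicle.

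The log2 of FPKM + 0.1 was fitted with limma 3.58.1 (R 4.3.3), all 3 groups in 1 model with the variance trend on. A mean of 0.1 FPKM or more over the libraries was required, which left 15729 genes, and p-values were two-sided and adjusted by Benjamini-Hochberg. Fold changes on this scale understate those of low genes. The scripts were tested on simulated data. Alternatives were pseudocounts of 1 and 0.01, no filter, median-ratio scaling, edgeR 4.0.16 and DESeq2 1.42.0 on recovered reads, libraries left out, and a block by mouse number. The p-values set the difference between groups against the spread between mice within groups, which includes the libraries that stood apart.

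The members, lists and tests were chosen with earlier results of these data known. Named genes were the 10 members, Myo5b, Anks4b, Calml4, up to 6 genes of the lists that passed in each comparison, the most abundant gene of each list, and the 5 genes most like the mean of the members. Xist was added as a check of labels, and genes overlapping members were named by position. Adgrv1 and Stk26 were read from their older names in the table. Promoters are from RefSeq (GRCm38.p6), and GC content is that of the GENCODE M21 transcript nearest in length to the gene length in the table.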

Additional observations from a re-analysis of the deposited data

How the results depend on the processing

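With 3 or 4 mice a group, the counts depended on which libraries entered. Between knockout and control mice 316 genes passed. The count was 188 with no filter on low values, 598 after median-ratio scaling, 1830 in DESeq2, 778 without control mouse 2 and knockout mouse 3, 1274 without LPA-treated mouse 1 as well, and 44 to 403 with single mice left out, lowest without control mouse 5. Of the 10 members 2 passed. There were 4 in DESeq2, 1 with no filter, 1 without control mouse 2 and knockout mouse 3, 1 without the Xist-positive libraries (knockout mouse 3 and LPA-treated mouse 1), 1 without all 3, and 0 to 1 with single mice left out. Between LPA-treated and control mice 365 genes passed, and 1489 in DESeq2, 1346 without the 2 low-detection libraries, 1899 without all 3 and 73 to 702 with single mice left out, lowest without LPA-treated mouse 5. The members that passed there numbered 2, but 3 in DESeq2, 1 with a pseudocount of 0.01, 1 without the low-detection libraries, 0 with no filter, 0 after median-ratio scaling, 0 in edgeR, 0 without the Xist-positive libraries and 0 to 2 with single mice left out. Between LPA-treated and knockout mice no gene passed, but 7 did in DESeq2 and 197 without all 3 libraries.

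Some directions turned. Between knockout and control mice the log2 estimate was 0.25 for Ezr and 0.067 for Myo7b without the Xist-positive libraries, and with single mice left out it ran from -0.45 to 0.25 for Ezr, -0.046 to 1.52 for Eps8 and -1.39 to 0.067 for Myo7b. Between LPA-treated and control mice it was -0.093 for Eps8 without all 3 libraries and ran from -0.63 to 0.047 for Ezr. Between LPA-treated and knockout mice Espn gave -0.072 after median-ratio scaling, -0.068 in edgeR, -0.088 in DESeq2, -0.017 without the low-detection libraries and -0.074 without the Xist-positive libraries or all 3. Eps8 and Cdhr2 gave -0.36 and -0.34 without the low-detection libraries, and -0.62 and -0.58 without the Xist-positive libraries or all 3. With single mice left out these estimates ran from -1.05 to 0.32 for Vil1, -0.53 to 0.15 for Ezr, -0.22 to 0.30 for Espn, -0.66 to 0.19 for Pls1, -0.36 to 0.46 for Eps8, -0.34 to 0.51 for Cdhr2 and -0.98 to 0.30 for Myo7b. The cause was not tested.

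Mouse numbers recur between groups, and the labels do not say what an equal number marks. The deviations of same-numbered libraries from their group means had correlations of 0.104, 0.300, -0.214 and -0.355. So few pairs cannot decide whether such mice shared a litter or a day, which was not tested. With a replicate block for the number, 0 members passed between LPA-treated and control mice, where Espn and Ush1c had stood just under the threshold without it. Between knockout and control mice Espn and Ush1c passed with the block too. The consensus correlation within mouse numbers was -0.0241.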
